A study of Homo sapiens with 20 samples.

Results

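The MHC class I genes, the stress ligands related to them and the class I transactivator were followed in U2OS osteosarcoma cells with and without the transcription factor ZBTB48. The set was given as a list of gene symbols, and all 9 were present among the 43366 genes of the count table. It holds the heavy chain genes HLA-B, HLA-C, HLA-E, HLA-F and HLA-G, the light chain gene B2M, the transactivator gene NLRC5 and the ligand genes MICA and MICB. RNA-seq had been carried out on 20 libraries in 4 groups of 5. The groups were WT clones and ZBTB48 knockout (KO) clones of U2OS, each untreated or treated with 250 U/ml interferon-γ (IFNγ) for 24 h. U2OS is an established human osteosarcoma line, every replicate was 1 clonal line, and the labels give the same 5 clones for the untreated and the treated libraries of each genotype. The study asked how ZBTB48 bears on the induction of CIITA, the master regulator of MHC class II, and class I genes are the other large antigen presentation family that IFNγ acts on.

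Class I molecules carry peptides made inside the cell to its surface, where CD8 T cells and natural killer cells inspect them. A polymorphic heavy chain pairs with the invariant light chain β2-microglobulin, and the complex leaves the endoplasmic reticulum only after a peptide has been loaded. IFNγ signals through JAK kinases and turns on IRF1 and NLRC5. NLRC5 does not bind DNA itself and works at class I promoters through an assembly of RFX, CREB/ATF and NF-Y proteins on the SXY module, in the way that CIITA works at class II promoters. MICA and MICB resemble heavy chains but bind neither peptide nor β2-microglobulin, and they are ligands of the activating receptor NKG2D.

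In GRCh38 the heavy chain and stress ligand genes lie along the short arm of chromosome 6, with HLA-F at chr6:29723434-29738532, HLA-G at chr6:29826474-29831021 and HLA-E at chr6:30489509-30494194 on the plus strand, HLA-C at chr6:31268749-31272092 and HLA-B at chr6:31353875-31357179 on the minus strand, and MICA at chr6:31400711-31415315 and MICB at chr6:31494918-31511124 on the plus strand. B2M lies at chr15:44711517-44718145 and NLRC5 at chr16:56989557-57083520, both on the plus strand. All values are counts over the annotated exons of these genes.

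Promoter sequences are shown because NLRC5 and the other factors of the pathway act there, and the windows can be set beside each gene's response. RefSeq start sites (GRCh38.p14) were matched for 7 of the 9 genes, all but HLA-E and NLRC5, with 9 windows in all since HLA-G has 3, and each window of 250 bases before to 50 after the start was searched on both strands. The stretch from 200 to 41 bases before the start is printed 5′ to 3′ on the strand of the gene, and capitals mark the motifs listed after it.
HLA-B (chr6:31357220-31357379, minus strand): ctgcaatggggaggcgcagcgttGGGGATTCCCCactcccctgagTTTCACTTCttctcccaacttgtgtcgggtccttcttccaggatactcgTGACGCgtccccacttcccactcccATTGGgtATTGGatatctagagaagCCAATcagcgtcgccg
HLA-C (chr6:31272133-31272292, minus strand): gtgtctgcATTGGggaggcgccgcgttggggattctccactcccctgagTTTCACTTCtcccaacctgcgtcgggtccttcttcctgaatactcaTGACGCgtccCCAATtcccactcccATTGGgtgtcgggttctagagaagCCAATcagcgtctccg
HLA-F (chr6:29723234-29723393, plus strand): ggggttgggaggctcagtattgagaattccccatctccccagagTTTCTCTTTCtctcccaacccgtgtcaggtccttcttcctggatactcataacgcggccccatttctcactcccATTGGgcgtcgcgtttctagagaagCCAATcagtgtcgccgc
HLA-G (chr6:29827625-29827784, plus strand): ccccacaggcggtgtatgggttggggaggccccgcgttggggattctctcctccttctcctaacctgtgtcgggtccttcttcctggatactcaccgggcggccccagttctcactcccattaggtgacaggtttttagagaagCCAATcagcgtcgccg
B2M (chr15:44711317-44711476, plus strand): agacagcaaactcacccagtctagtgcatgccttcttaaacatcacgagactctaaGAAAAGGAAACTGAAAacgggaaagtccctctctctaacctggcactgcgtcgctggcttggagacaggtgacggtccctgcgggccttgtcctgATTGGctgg
MICA (chr6:31403395-31403554, plus strand): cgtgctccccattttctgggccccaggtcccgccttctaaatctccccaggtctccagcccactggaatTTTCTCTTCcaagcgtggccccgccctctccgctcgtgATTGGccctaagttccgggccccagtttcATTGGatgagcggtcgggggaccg

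The motifs were the interferon-stimulated response element GAAANNGAAA, a shorter form of it GAANNGAAA, the X2 box core TGACGC, the Y box ATTGG, the enhancer A (κB) sequence GGGGANTCCC, the gamma-activated site TTCNNNGAA and the heat shock element GAANNTTCNNGAA. The shorter form was added, and the free base in the enhancer A motif set, after the sequences had been read. The full response element was found in the B2M and HLA-F windows and in 3.57% of all 35116 RefSeq windows. B2M held it as a pair of overlapping copies. The shorter form was found in the windows of HLA-B, HLA-C, MICA and MICB and in 7.66% of all windows. The X2 core was found in HLA-B and HLA-C, against 9.14% of all windows. The Y box is common, at 34.6% of all windows, and was found in 7 of the 9 windows here. Enhancer A was found in HLA-B alone among these windows, in overlapping copies on both strands, against 0.424% of all windows. No window held the gamma-activated site, found in 7.66% of all windows, and 1 HLA-G window upstream of the printed one held the heat shock element, found in 0.49%. Over the printed stretch HLA-B was 87.2% identical to HLA-C, 79.6% to HLA-F and 73.6% to the HLA-G window shown. It was 52.5% identical to MICA and 47.4% to B2M in the same alignment, which counts gaps as differences. HLA-G windows 1 and 2, which are not printed, were 48.6% and 44.8% identical to HLA-B. The HLA-G gene had too few counts for a call. A match describes letters only.

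Library totals ran from 46652288 to 72952859 counts. Among 8 markers of mesenchymal and osteoblast cells, the summed level lay between 5511 and 16840 CPM (counts scaled to a common library size by the TMM method) in all 20 libraries, although COL1A2 stayed below 1 CPM (highest, 0.955 CPM). The 8 leucocyte markers summed to 1.55 to 16.0 CPM, and 4 epithelial markers summed to 240.1 to 973.8 CPM. Most of the latter sum was KRT8 (30.4 to 647.7 CPM) and KRT18 (164.2 to 537.7 CPM), while EPCAM reached at most 12.55 CPM and CDH1 4.61 CPM. Some libraries stood apart from others with the same label. ZBTB48 mRNA was 8.05 to 9.19 CPM in untreated WT clones and 8.91 to 11.7 CPM in treated ones. It was 1.27 to 4.04 CPM and 1.70 to 5.17 CPM in 4 of the libraries labelled KO, but 11.3 and 16.0 CPM in the pair labelled KO replicate 3. A knockout can leave the mRNA in place, so this level does not settle the genotype. CIITA in treated KO replicate 3 was 11.2 CPM. It was 38.6 to 111 CPM in treated WT libraries and 3.06 to 18.8 CPM in all treated libraries labelled KO. For KO replicates 4 and 5, the untreated and treated libraries with the same clone label did not deviate together from their group means (r = 0.01 and 0.10 over 13279 genes), whereas the other 8 clones gave 0.68 to 0.89 and the 2 crossed pairs gave 0.77 and 0.86. The calls, the per-clone responses, the spread and part of the correlations of HLA-B below are also given without KO replicate 3 and without KO replicates 4 and 5. The other correlations, the order of levels and the genes most like a member are given with all libraries. The groups are called KO clones after their labels.

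IFNγ raised the 4 heavy chain genes HLA-B, HLA-C, HLA-E and HLA-F, B2M and NLRC5 in WT clones by 3.70- to 13.4-fold. A gene was called at an adjusted p under 0.01 and more than 2-fold. Of the 7 members with enough counts for the test, 6 were called higher and none lower (2.48% of the 19522 genes tested were called higher and 0.512% lower). HLA-G and MICB did not pass the filter on low counts. The median log2 fold change of the 7 was 2.19, against -0.03 over all genes tested. In the libraries labelled KO, 6 of 7 were again called higher and none lower (1.7% of 19385 genes called higher, 0.258% lower), with a median of 2.30. In bulk RNA, more cells responding and more RNA per cell cannot be told apart.

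**Figure D1:**
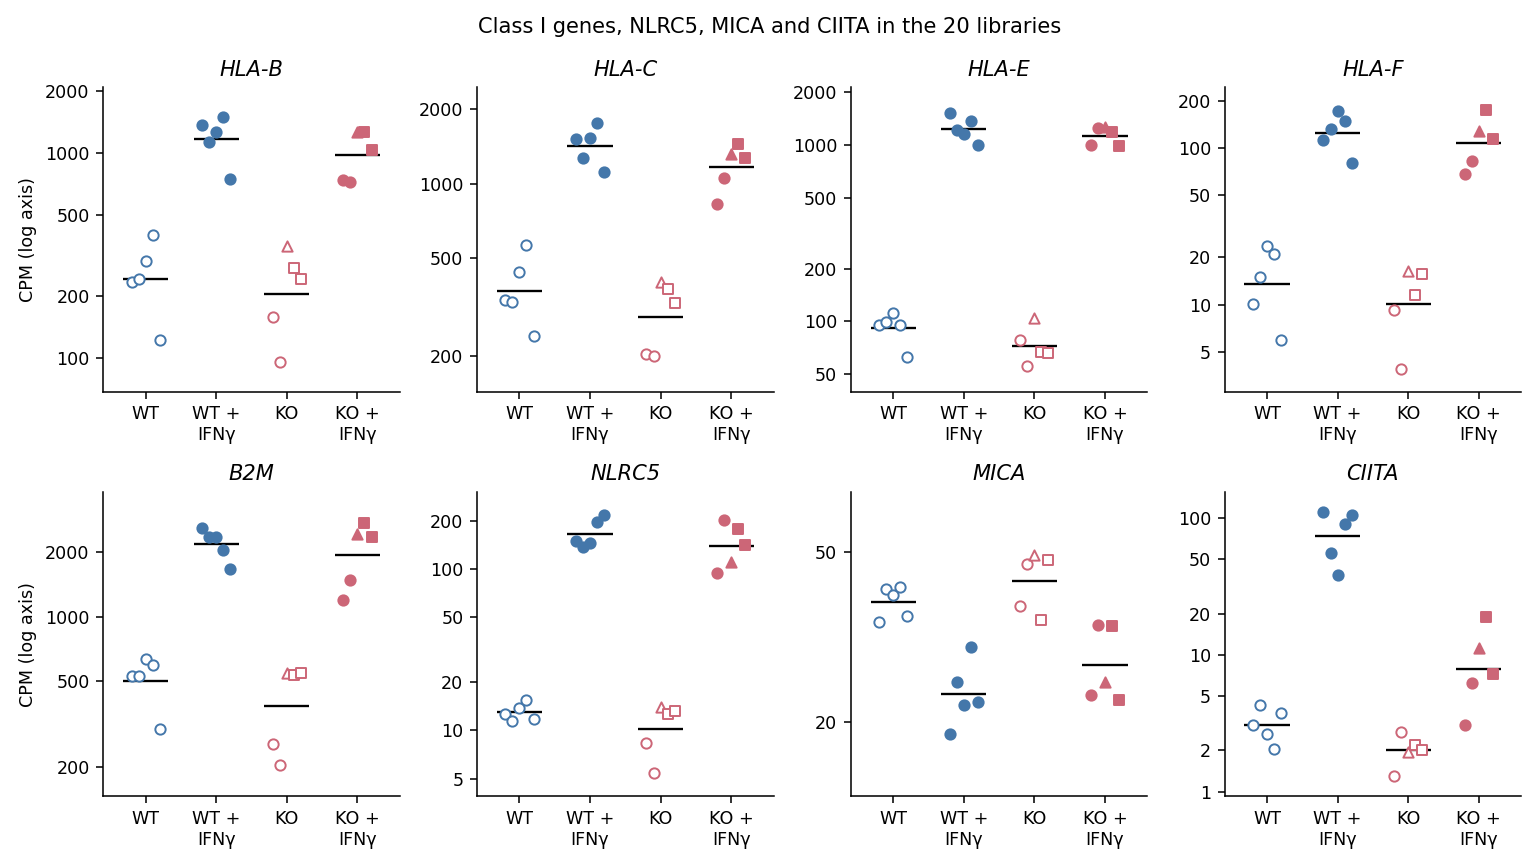
CPM on a log axis of 7 class I pathway genes and CIITA in each of the 20 libraries (blue, WT; red, labelled KO; open, untreated; filled, IFNγ; triangles, KO replicate 3; squares, KO replicates 4 and 5), with lines at the geometric means. Within each genotype the treated libraries lie above the untreated ones in every panel except MICA, where they lie below, and only CIITA separates treated WT from treated KO libraries.

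HLA-E, the heavy chain that presents leader peptides of other heavy chains to the NKG2A receptor, showed the largest response of the members tested. Untreated WT clones held 95.04, 99.0, 111, 96.1 and 63.1 CPM, and treated WT clones held 1529, 1230, 1160, 1370 and 1008 CPM. In the libraries labelled KO the levels were 78.6, 55.9, 105, 66.8 and 66.3 CPM before and 1009, 1250, 1265, 1188 and 988 CPM after treatment. The 2 ranges were far apart in both genotypes, and treated clones differed by at most 0.60 log2 units in WT and 0.36 in KO. The log2 fold change was 3.75 ± 0.18 (SE) in WT clones and 3.93 ± 0.18 in KO clones (adjusted p = 2.68e-07 and 4.51e-07, edgeR quasi-likelihood test with Benjamini-Hochberg adjustment, n = 5 per group).

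HLA-F, a non-classical heavy chain found mostly inside the cell, responded from a much lower level. It lay at 10.0, 15.1, 23.7, 21.0 and 5.96 CPM in untreated WT clones and at 113, 132, 171, 148 and 79.9 CPM in treated ones. Libraries labelled KO held 9.24, 3.90, 16.4, 11.5 and 15.6 CPM, and 68.3, 82.3, 129, 174 and 114 CPM with IFNγ. Every treated library exceeded every untreated one. Its log2 fold change was 3.07 ± 0.36 in WT (adjusted p = 2.91e-04) and 3.32 ± 0.39 in KO clones (adjusted p = 5.82e-04, edgeR). Exons of HLA-F share 703 bases with the antisense gene HLA-F-AS1, which received 41 to 163 counts per library, and the strand setting of the counting is not given in the sources used here.

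The classical heavy chains HLA-B and HLA-C, which present peptides to CD8 T cells, were abundant before treatment and rose with IFNγ in both genotypes. Untreated WT clones held 235, 243, 297, 398 and 122 CPM of HLA-B, and treated ones held 1368, 1128, 1261, 1497 and 748 CPM. Libraries labelled KO held 159, 95.9, 352, 274 and 242 CPM untreated and 742, 719, 1274, 1274 and 1035 CPM treated. WT replicate 5 was the lowest WT clone both before and after treatment, and KO replicates 1 and 2 were the lowest KO clones in both conditions. For HLA-B the log2 fold change was 2.19 ± 0.29 in WT (adjusted p = 6.37e-04) and 2.17 ± 0.33 in KO clones (adjusted p = 0.00278, edgeR).

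HLA-C had the same lowest clones as HLA-B. WT clones held 338, 331, 440, 567 and 243 CPM untreated and 1511, 1275, 1535, 1752 and 1119 CPM treated, and libraries labelled KO held 204, 202, 399, 374 and 327 CPM untreated and 828.8, 1056, 1315, 1452 and 1272 CPM treated. The groups with and without IFNγ did not overlap in either genotype. The log2 fold change was 1.89 ± 0.22 in WT and 1.98 ± 0.23 in KO clones (adjusted p = 2.99e-04 and 5.69e-04, edgeR). Heavy chain genes are close in sequence and differ between people and cell lines, and reads that aligned in more than 1 place had been discarded, so levels of single heavy chains are less certain than their changes between clones of 1 line.

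B2M, the light chain of all class I complexes, was the most abundant member. Its levels were 530, 528, 633, 594 and 298 CPM in untreated and 2603, 2344, 2361, 2052 and 1678 CPM in treated WT clones. Libraries labelled KO held 254, 203, 549, 533 and 544 CPM, and 1197, 1478, 2442, 2732 and 2365 CPM after IFNγ. KO replicates 1 and 2 stayed at the bottom of their group in both conditions, below all WT clones. The log2 fold change was 2.08 ± 0.20 in WT (adjusted p = 7.08e-05) and 2.30 ± 0.34 in KO clones (adjusted p = 0.00247, edgeR).

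NLRC5 had a response close in value to that of HLA-E. WT clones held 12.6, 11.4, 13.8, 15.3 and 11.7 CPM untreated and 149, 137, 146, 197 and 215 CPM with IFNγ. Libraries labelled KO held 8.27, 5.43, 13.9, 12.6 and 13.1 CPM untreated and 93.8, 201, 111, 178 and 141 CPM treated. KO replicate 2 had the lowest level of all 20 libraries before treatment and the second highest treated level, so that its own log2 response was 5.20, against 3.0 to 4.19 in the other 9 clones. The log2 fold change was 3.69 ± 0.18 in WT and 3.77 ± 0.31 in KO clones (adjusted p = 2.97e-07 and 3.87e-05, edgeR).

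MICA was lower with IFNγ, by less than 2-fold. It lay at 34.3, 40.9, 39.6, 41.4 and 35.5 CPM in untreated WT clones and at 18.9, 24.8, 22.0, 30.0 and 22.4 CPM in treated ones. Libraries labelled KO held 37.4, 46.8, 49.2, 34.7 and 47.7 CPM untreated and 23.2, 33.7, 24.9, 33.6 and 22.6 CPM treated. No treated library reached the untreated range of its genotype, and the level fell in 5 of 5 clones of each genotype. Its log2 fold change was -0.71 ± 0.13 in WT clones (adjusted p = 0.0052) and -0.65 ± 0.16 in KO clones (adjusted p = 0.0324, edgeR), so the change was smaller than the 2-fold set for a call. At an adjusted p under 0.05 with no minimum fold, all 7 tested members passed in both genotypes, where 6.98% of genes tested passed higher and 4.3% lower in WT clones, and 5.41% and 2.47% in KO clones. In KO clones MICA no longer passed without replicate 1 (adjusted p = 0.107), 3 (0.172) or 5 (0.154), with log2 fold changes of -0.55 to -0.61, and without replicates 4 and 5 together 2 members passed, HLA-E and NLRC5 (MICA, adjusted p = 0.237, edgeR).

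HLA-G, a heavy chain of the placental trophoblast, and MICB stood at the limit of counting. HLA-G had 0 to 10 counts in untreated WT, 4 to 13 in treated WT, 0 to 4 in untreated KO and 1 to 6 in treated KO libraries, and never exceeded 0.222 CPM. MICB had 2 to 6, 0 to 24, 1 to 14 and 0 to 17 counts in the same order of groups, and never exceeded 0.327 CPM. With no filter on low counts the adjusted p of the IFNγ response was 0.399 in WT and 0.561 in KO clones for HLA-G, and 0.363 and 0.919 for MICB (edgeR). At these counts a fold change depends on the count added before the logarithm is taken.

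The exact permutation test over clones gave p = 0.00794 (two-sided, 5 against 5, the smallest p that 252 regroupings allow) in both genotypes for HLA-B, HLA-C, HLA-E, HLA-F, B2M, NLRC5 and MICA. In WT clones the 6 calls were present under each of the 12 other settings and left-out replicates. In KO clones they were less firm in fits that did not pair libraries by clone. A fit paired by clone was run with all replicates only and called 6 members. Leaving out 1 replicate at a time without pairing left 4 to 6 called members. Calls over all genes then went from 379 to between 131 and 490. HLA-B lost its call without replicate 1, 3, 4 or 5 and B2M lost it without replicate 3, 4 or 5, while the fold change of HLA-B stayed at 2.08 to 2.30 and that of B2M at 2.22 to 2.35 on the log2 scale. Without KO replicates 4 and 5, a setting added after the data had been seen, 3 clones per group remained and 1 member (HLA-E) was called, among 22 genes in all, with log2 fold changes of 2.15 for HLA-B, 1.97 for HLA-C, 3.21 for HLA-F, 2.32 for B2M and 3.86 for NLRC5.

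**Figure D2:**
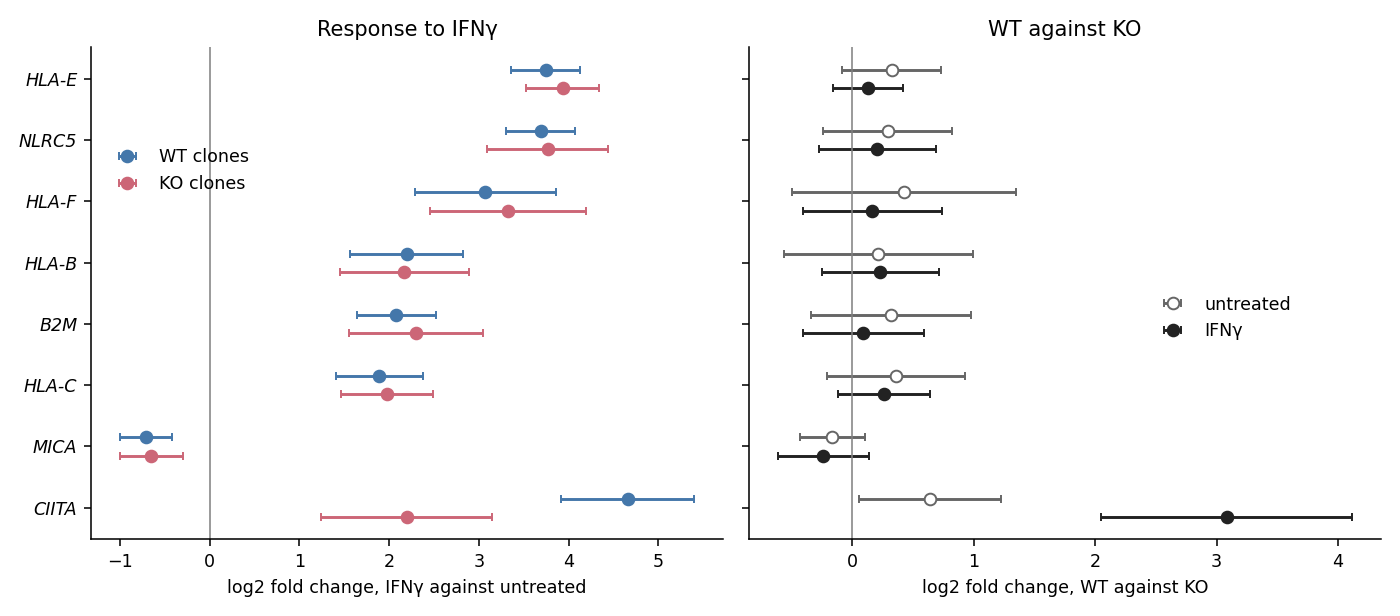
Log2 fold changes with 95% confidence intervals from edgeR for 7 class I pathway genes and CIITA; left, IFNγ against untreated in WT and KO clones (n = 5 per group); right, WT against KO without and with IFNγ. On the left the intervals of WT and KO clones overlap for each gene but CIITA, and on the right those of the 7 class I pathway genes include 0.

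The loss of ZBTB48 was compared next. No member was called between untreated WT and KO clones (0.0154% of 19505 genes called higher in WT, 0% lower) or between treated ones (0.0155% of 19383 higher, 0% lower), and none had an unadjusted p under 0.05 in either comparison with edgeR. At an adjusted p under 0.05 with no minimum fold no member passed either, where 0.0308% of genes passed higher in untreated and 0.0206% in treated WT clones. DESeq2 also called none. The WT and KO ranges overlapped for every member with and without IFNγ, and those of the 7 tested members also did without KO replicate 3 and without KO replicates 4 and 5. For untreated clones the log2 fold change, WT against KO, was 0.42 for HLA-F (95% confidence interval -0.50 to 1.35), 0.36 for HLA-C (-0.21 to 0.93), 0.33 for HLA-E (-0.08 to 0.73), 0.32 for B2M (-0.34 to 0.97), 0.29 for NLRC5 (-0.24 to 0.82), 0.21 for HLA-B (-0.56 to 0.99) and -0.17 for MICA (-0.43 to 0.10). The 7 adjusted p-values were 0.98 to 0.989 (edgeR). Without KO replicate 3 the value for HLA-E was 0.48 (0.10 to 0.85, unadjusted p = 0.0174, adjusted p = 0.999, edgeR), and without KO replicates 4 and 5 it was 0.23.

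With IFNγ the same differences were 0.26 for HLA-C (-0.12 to 0.64), 0.23 for HLA-B (-0.25 to 0.71), 0.21 for NLRC5 (-0.28 to 0.69), 0.16 for HLA-F (-0.41 to 0.74), 0.13 for HLA-E (-0.16 to 0.42), 0.09 for B2M (-0.41 to 0.59) and -0.24 for MICA (-0.62 to 0.14). The intervals leave room for WT clones to hold up to 0.74 log2 units more of a heavy chain, and for HLA-E up to 0.42. MICB passed the filter here, and its interval of -1.76 to 2.14 was the widest. The 8 adjusted p-values were 0.996 to 0.998 (edgeR). Leaving out KO replicate 3, or KO replicates 4 and 5 together, also left 0 members called without and with IFNγ. Without replicates 4 and 5 the treated difference of HLA-C was 0.44 (unadjusted p = 0.0489, adjusted p = 0.997, edgeR), and that of B2M was 0.39 (-0.15 to 0.92).

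CIITA, the gene the study was about, was measured in the same libraries. It was 3.16 ± 0.88 CPM (SD, n = 5) in untreated and 80.0 ± 31.6 CPM in treated WT clones, against 2.03 ± 0.51 and 9.32 ± 6.06 CPM in the libraries labelled KO. Treated WT and KO libraries did not overlap (exact permutation p = 0.00794), and the log2 difference was 3.08 (2.05 to 4.12). Its adjusted p over all genes was 0.0951 (edgeR). Without KO replicate 3 the log2 difference was 3.16 (1.96 to 4.36, exact permutation p = 0.0159), and without KO replicates 4 and 5 it was 3.57 (2.4 to 4.75, exact permutation p = 0.0357), again with no overlap. Exons of CIITA share 1569 bases with DEXI, a gene on the opposite strand that received 0 counts in every library. Whether reads of DEXI entered the CIITA counts was not tested.

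The response of each clone, its treated minus its untreated log2 level, was then compared between genotypes. HLA-B rose by 2.27 ± 0.30 in WT and 2.26 ± 0.39 in KO clones (SD, n = 5, exact permutation p = 0.937). The WT and KO means were 1.95 and 2.01 for HLA-C, 3.77 and 3.96 for HLA-E, 3.20 and 3.41 for HLA-F, 2.13 and 2.35 for B2M, 3.68 and 3.79 for NLRC5 and -0.71 and -0.65 for MICA, with overlapping ranges throughout. Their exact permutation p-values were 0.286 to 0.849. Exchanging the treated libraries of KO replicates 4 and 5 left these means as they were, and the SD of the MICA response in KO clones went from 0.42 to 0.20. Without KO replicate 3 the KO means were 2.36 for HLA-B, 2.08 for HLA-C, 4.05 for HLA-E, 3.51 for HLA-F, 2.39 for B2M, 3.99 for NLRC5 and -0.57 for MICA (exact permutation p = 0.222 to 0.746 against WT). Without KO replicates 4 and 5 they were 2.33, 2.04, 3.92, 3.41, 2.42, 3.90 and -0.72 in the same order (exact permutation p = 0.321 to 1), and the ranges overlapped in both settings. For CIITA the means were 4.59 ± 0.77 and 1.96 ± 0.82 with no overlap (exact permutation p = 0.00794), and the KO mean was 1.83 without replicate 3 and 1.64 without replicates 4 and 5. In edgeR's interaction fit over all 20 libraries no gene of the 21052 tested was called (0% in either direction), and DESeq2 called 0. The fit did not pair libraries by clone. In it 86 genes had an unadjusted p under 0.05, fewer than chance alone would give, and none of them was a member. With clone as block 317 genes did, and 584 with KO replicates 4 and 5 also exchanged. CIITA was not called either, at 2.44 (1.33 to 3.56, unadjusted p = 0.000197, edgeR). A missing call in this fit therefore does not show that responses were equal. The interval of the difference between responses was -0.91 to 0.93 for HLA-B, -0.78 to 0.57 for HLA-C, -0.69 to 0.28 for HLA-E, -1.36 to 0.83 for HLA-F, -1.05 to 0.59 for B2M, -0.78 to 0.60 for NLRC5 and -0.52 to 0.36 for MICA, on the log2 scale.

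The spread between clones was wider before than after IFNγ for most of the family. The SD of log2 CPM of HLA-B was 0.63 before and 0.39 after treatment in WT clones, and 0.74 and 0.40 in KO clones. For HLA-F it was 0.81 and 0.42 in WT and 0.84 and 0.53 in KO clones, and for HLA-C 0.46 and 0.25, and 0.48 and 0.32. HLA-E and B2M had lower values after treatment as well, in both genotypes. NLRC5 in WT clones and MICA in both genotypes had the smaller value before treatment. In KO clones the same 6 genes had the smaller SD with IFNγ without replicate 3 and without replicates 4 and 5, where HLA-B gave 0.68 and 0.40, and 0.95 and 0.46. The SDs of 5 clones are given as a description, and their differences were not tested.

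**Figure D3:**
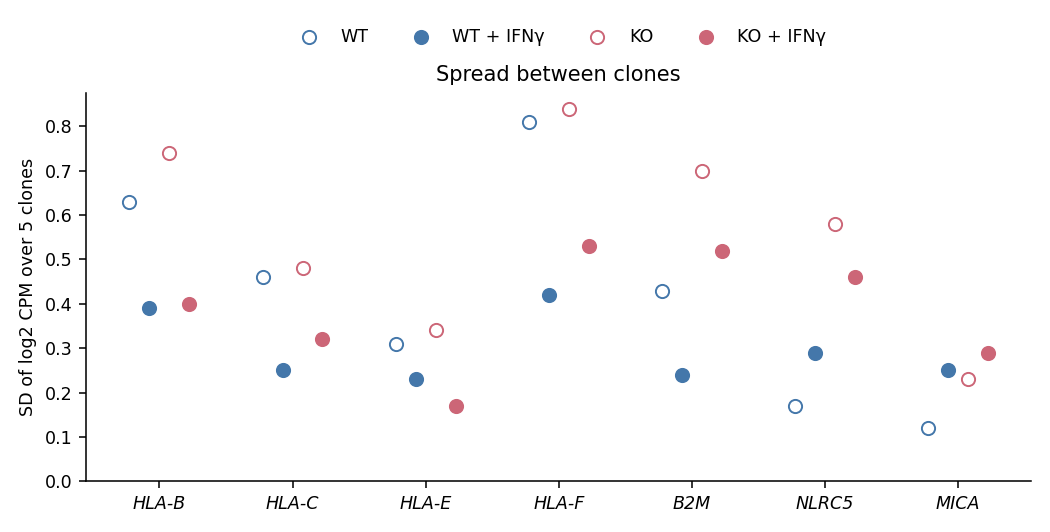
SD of log2 CPM over the 5 clones of each group for 7 genes (open, untreated; filled, IFNγ; blue, WT; red, labelled KO). The filled points lie below the open ones of the same colour for HLA-B, HLA-C, HLA-E, HLA-F and B2M, and above them for MICA and for NLRC5 in WT clones.

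Compared per length, as CPM per kb of counted exons, the 9 genes spanned about the same order in all groups. In untreated WT clones B2M (334.6 ± 84.2 CPM per kb, SD) came first, then HLA-C (248.9 ± 80.4), HLA-B (168.6 ± 65.4), HLA-E (34.7 ± 6.68), MICA (26.6 ± 2.24), HLA-F (3.52 ± 1.71) and NLRC5 (1.57 ± 0.19), with MICB and HLA-G below 0.1. The neighbours B2M and HLA-C, HLA-C and HLA-B, HLA-E and MICA, HLA-F and NLRC5, and MICB and HLA-G overlapped. In treated WT clones the mean levels were 1430 for B2M, 932.8 for HLA-C, 781.4 for HLA-B, 470.3 for HLA-E, 29.96 for HLA-F, 20.5 for NLRC5 and 16.4 for MICA, and the gaps without overlap lay between HLA-E and HLA-F and between MICA and the lowest 2. MICA thus stood above HLA-F and NLRC5 before treatment, without overlap, and next to them after it. In the libraries labelled KO, MICA (29.9) and HLA-E (27.8) overlapped before treatment, and after it MICA (19.1) stood between HLA-F (26.4) and NLRC5 (17.6), overlapping both.

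Levels of HLA-C, HLA-F and B2M rose with those of HLA-B across clones, before and after IFNγ. Over the 10 untreated libraries, log2 levels of HLA-B and HLA-C correlated with Pearson's r = 0.93 and Spearman's rho = 0.94 (permutation p = 0.0002 and 0.00034, adjusted 0.0006 and 0.00159 over 6 relations). The r was 0.93 with HLA-F, 0.92 with B2M, 0.85 with NLRC5, 0.75 with HLA-E and 0.10 with MICA, and rho was 0.92, 0.89, 0.84, 0.77 and 0.27. The adjusted permutation p of r was 0.0006, 0.00168, 0.00361, 0.0167 and 0.782, and that of rho 0.00159, 0.00228, 0.00591, 0.0147 and 0.448. Without the 2 libraries farthest from the median HLA-B level, r was 0.96 with HLA-C, 0.75 with HLA-F, 0.81 with B2M and 0.92 with NLRC5, while the value with HLA-E dropped to 0.42 and thus rested on those libraries. Over the 10 treated libraries r was 0.91 with HLA-C (rho 0.92, permutation p = 6e-05 and 0.00063, adjusted 0.00036 and 0.00378), 0.87 with HLA-F, 0.84 with B2M, 0.64 with HLA-E, -0.02 with NLRC5 and -0.05 with MICA. For these 5 genes rho was 0.67, 0.68, 0.61, 0.04 and -0.07, the adjusted permutation p of r was 0.00642, 0.011, 0.0737, 0.956 and 0.956, and that of rho 0.0777, 0.0777, 0.101, 0.919 and 0.919. Without the 2 farthest libraries r was 0.89 with HLA-C, 0.76 with HLA-F and 0.66 with B2M. HLA-B was made the reference gene after its values had been seen, the points share their clones between conditions, and the difference between r with NLRC5 before and after treatment was not tested. Within WT and within KO libraries the r of HLA-B with NLRC5 was 0.79 and 0.98 untreated, and -0.43 and 0.01 treated, with 5 libraries each. Without KO replicate 3 and without KO replicates 4 and 5, the untreated r of HLA-B was 0.94 and 0.93 with HLA-C and 0.84 in both with NLRC5, while with HLA-E it was 0.71 and 0.93. The treated r was 0.92 and 0.90 with HLA-C and 0.08 and -0.07 with NLRC5.

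The relation of the transactivators to their class I targets was examined over the 10 treated libraries, 12 relations in all. NLRC5 gave r of -0.02 with HLA-B, 0.37 with HLA-C, 0.18 with HLA-E, 0.13 with HLA-F, 0.47 with HLA-G and 0.08 with B2M, and rho of 0.04, 0.14, 0.10, 0.02, 0.05 and -0.10. The adjusted permutation p-values were 0.39 to 0.956 for r and 0.973 for each rho. WT replicate 5 had the highest NLRC5 and the lowest HLA-B of the treated WT clones. CIITA levels of treated WT and KO libraries did not overlap. An r over all 10 would carry this difference between genotypes and is not given. None of its 6 relations over all 10 had an adjusted permutation p under 0.05 over the 12. The lowest unadjusted permutation p of r were 0.0363 with HLA-C and 0.0394 with HLA-G. These p-values carry the same split between genotypes, so nothing is concluded from them. With 5 libraries a genotype is too small for a test, and the r within WT and within KO libraries is a description. It was -0.16 and 0.86 with HLA-B, -0.11 and 0.95 with HLA-C, 0.27 and 0.55 with HLA-E, -0.72 and 0.97 with HLA-F, -0.24 and 0.72 with HLA-G, and -0.33 and 0.91 with B2M. The KO values include replicates 3, 4 and 5. Class I levels overlapped between the genotypes.

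**Figure D4:**
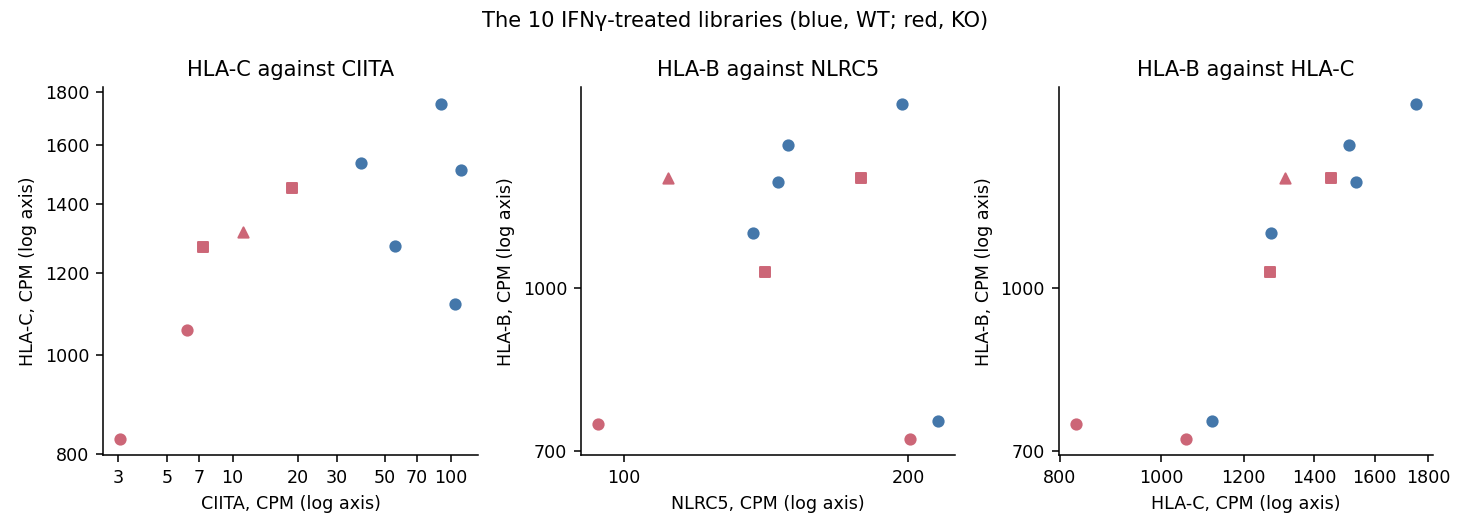
Levels in the 10 IFNγ-treated libraries as CPM on log axes (blue, WT; red, labelled KO; triangles, KO replicate 3; squares, KO replicates 4 and 5): HLA-C against CIITA, HLA-B against NLRC5 and HLA-B against HLA-C. CIITA levels of WT and KO libraries do not overlap while their HLA-C levels do, HLA-B shows no trend with NLRC5 (r = -0.02), and HLA-B and HLA-C rise together (r = 0.91).

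Among the 21052 genes of the 20-library fit, those most like each member over all libraries were sought by Pearson's r of log2 CPM. The 20 libraries include both conditions, so the response to IFNγ enters this measure. HLA-E was most like TAP1 (r = 0.997), the peptide transporter, then GBP5 and GBP1P1. NLRC5 was close to NMI and UBE2L6 (r = 0.987 with each). B2M was most like HLA-B, HLA-C and HLA-F. MICA had weaker neighbours, HDAC8 (r = 0.892), ZBTB18 and CYP27C1.

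Most genes that supply and load peptides rose with the heavy chains. Of 14 such genes, 11 were called higher in WT clones (2.48% of all genes tested) and 11 in KO clones (1.7%), none lower, with median log2 fold changes of 2.24 and 2.10 against -0.03 over all genes in both fits. PSMB9, an immunoproteasome subunit, gave 4.90 in WT and 5.16 in KO clones, and TAP1 gave 4.41 and 4.68. The chaperones CALR (-0.36 and -0.50) and CANX (-0.00 and 0.01) stood at the other end and were not called. Without KO replicate 3, 9 were called in KO clones (median 2.20), and without replicates 4 and 5, 2 were (median 2.12). Between WT and KO clones none of the 14 was called with or without IFNγ. Of all genes tested, 0.0154% and 0.0155% were called higher in WT clones. CALR alone of the 14 had an unadjusted p under 0.05, in both conditions. It was higher in WT clones by 0.38 log2 units untreated and 0.52 treated (unadjusted p = 0.00234 and 0.00218, adjusted p = 0.873 and 0.935, edgeR). Its WT and KO ranges did not overlap in either condition (untreated, 1479 to 1702 against 1113 to 1394 CPM).

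Of 15 signalling and promoter factors, 4 were called higher in WT clones (2.48% of all genes tested) and 3 in KO clones (1.7%). The count in KO clones was 2 without replicate 3 and 1 without replicates 4 and 5. IRF1 gave a log2 fold change of 4.96 in WT and 4.72 in KO clones, and JAK2, a kinase of the IFNγ receptor, gave 1.89 and 1.71 and was called in both. CIITA gave 4.66 in WT clones and 2.19 in KO clones, where its adjusted p of 0.0116 (edgeR) missed the threshold. NFYA (-0.27 in both) and JAK1 (-0.08 and -0.15) had the smallest values. The RFX, NF-Y and CREB1 genes, whose products form the assembly that NLRC5 joins, were not called in either genotype. RFX5, named after its values were seen, gave 0.56 in WT (adjusted p = 0.00394) and 0.40 in KO clones (adjusted p = 0.0412, edgeR), short of the 2-fold set for a call.

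The other NKG2D ligands were compared with MICA and MICB. ULBP1 did not pass the filter, and none of the 5 tested was called in either genotype. Of all genes tested, 2.48% were called higher and 0.512% lower in WT clones, and 1.7% and 0.258% in KO clones. At these shares a list of 5 genes would usually hold no call. Leaving out KO replicate 3, or KO replicates 4 and 5, also left none called in KO clones. Their median log2 fold change was -0.34 in WT and -0.39 in KO clones. RAET1E gave 1.62 and 1.53 (adjusted p = 0.0307 and 0.0309) with 0.313 to 1.17 CPM before and 1.17 to 3.53 CPM after IFNγ in WT clones. RAET1L gave 0.26 and 0.16, while ULBP2 gave -0.64 and -0.68 (adjusted p = 0.0578 and 0.0369) and RAET1G -1.22 and -0.47 (adjusted p = 0.145 and 0.542, edgeR).

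**Figure D5:**
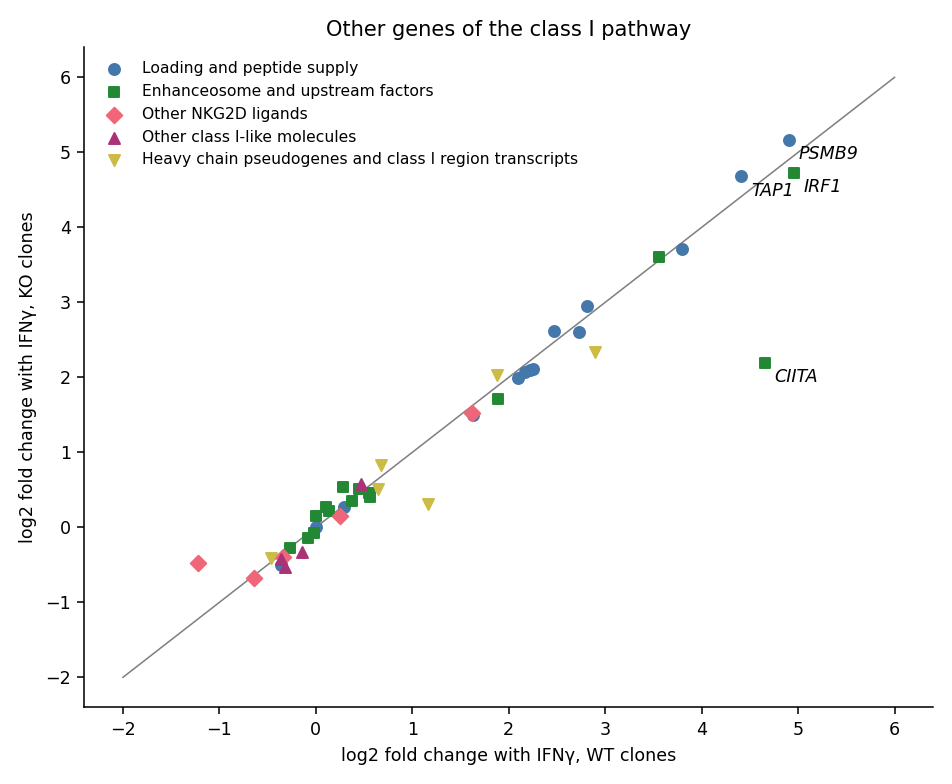
Log2 fold change with IFNγ in KO clones (vertical axis) against WT clones (horizontal axis) for genes of 5 lists around the class I pathway that were tested in both; the line marks equal values. Genes for loading and peptide supply reach 4.90 in WT and 5.16 in KO clones, and CIITA (4.66 and 2.19) lies farthest from the line.

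Class I-like molecules outside peptide presentation to T cells showed no called change in either genotype, also without KO replicate 3 and without KO replicates 4 and 5. Of all genes tested, 2.48% were called higher and 0.512% lower in WT clones, and 1.7% and 0.258% in KO clones. So short a list would usually hold no call at these shares. Of MR1, CD1D, FCGRT, PROCR, HFE and AZGP1, 4 were tested, and the log2 fold changes in WT clones ran from -0.36 for CD1D and -0.32 for PROCR to -0.14 for FCGRT and 0.46 for MR1. Among pseudogenes and non-coding transcripts of the class I region, 6 of the 8 in the table were tested. HLA-H alone was called in each genotype (2.48% and 1.7% of all genes tested were called higher), with 1.88 in WT and 2.03 in KO clones. Without KO replicate 3 it gave 2.07 and without replicates 4 and 5 it gave 2.09, and it was not called in these settings. HLA-H had 7.70 ± 2.43 CPM before and 28.7 ± 5.48 CPM after IFNγ in WT clones, and its reads cannot be told apart from those of intact heavy chains where the sequences are the same. HCP5, a transcript between HLA-B and MICB, gave 2.89 in WT clones (adjusted p = 0.0405) and 2.33 in KO clones (adjusted p = 0.0979, edgeR), and HLA-F-AS1 gave -0.46 and -0.40.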

How the data were processed

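The authors aligned stranded mRNA reads to GRCh38 with STAR 2.7.9a, kept unique mappers, and deposited raw counts per RefSeq gene from featureCounts 2.4.0 for 20 libraries; no replicates were pooled. The strand setting is not given in the sources used here. Uniquely mapped reads undercount stretches that heavy chain genes share. The labels name the same clone for both treatments (same-clone deviations, r of 0.68 to 0.89 for 8 clones, 0.01 and 0.10 for KO replicates 4 and 5).

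Counts were scaled by TMM and tested over all genes with edgeR 4.0.16 (quasi-likelihood, filterByExpr, Benjamini-Hochberg adjustment), 5 against 5, and in an interaction fit over 20 libraries. CPM per kb used the deposited gene lengths. Single values were compared by exact permutation tests, and correlations with 100000 permutations. Alternatives were DESeq2 1.42.0, other scalings, no filter, clone as block and leaving out replicates. The scripts were tested on simulated data. The members, the lists and the named genes (2 largest and 2 smallest changes per list in WT clones, and nearest genes for 4 members) were chosen with earlier results of these data known. Some named genes of the lists are not reported here. Library totals of 46652288 to 72952859 counts set the precision.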

Additional observations from a re-analysis of the deposited data

Results flagged for a closer look

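Of 36 groups of 5 libraries, the 9 genes in 4 groups, 2 held a library far from the others, where chance flags about 1 in 20 groups. In untreated WT clones, replicate 4 had 0.159 CPM of HLA-G (10 counts) while the other 4 libraries had 0. In the same group, replicate 3 had 0.122 CPM of MICB (6 counts) against 0.0318 to 0.0522 CPM in the others. The log2 response of HLA-G differed by 0.97 between WT clones (mean 1.68) and KO clones (mean 0.71), with an exact permutation p of 0.0476 (two-sided, n = 5 per genotype) that was not adjusted over the members. HLA-G was higher after IFNγ in 5 of 5 clones of each genotype, at 13 counts or fewer in every library. Since 4 of the 5 untreated WT libraries had 0 counts, these responses depend on the count of 2 added before the logarithm is taken. With library totals in place of TMM scaling the difference was 0.94 (exact permutation p = 0.0556), and edgeR's interaction fit with no filter on low counts gave 0.81 with a 95% interval of -2.27 to 3.88.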

How the results depend on the processing

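The count of members called with IFNγ in WT clones was 6 under DESeq2, other scalings, no filter, a fit over all libraries and each left-out replicate. In KO clones it was 6 under the same tools and 4 to 6 with a replicate left out. Without KO replicates 4 and 5 it dropped to 1, in a setting added after the data had been seen that leaves 3 clones per group. Calls over all genes fell from 379 to 22 there. An exchange of labels between KO replicates 4 and 5 would not alter a fit without pairing, so this drop does not bear on the labels. At an adjusted p under 0.05 and no minimum fold the count of members was 7 in both genotypes. In KO clones it was then 6 without replicate 1, 3 or 5 and 2 without replicates 4 and 5. The counts of 0 between WT and KO clones and between their responses were 0 under every setting run. With clone as replicate block, 6 members were called in each genotype, and also with KO replicates 4 and 5 exchanged, while calls over all genes went from 585 to 1414 in WT and from 379 to 721 in KO clones (1208 exchanged). DESeq2 called 976 and 825 genes without shrinkage and 869 and 756 with normal shrinkage of the fold changes. The replicate block changed no call of a member, and the numbers shared by WT and KO clones are names only (r of -0.23 to 0.25).

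Small differences that missed the threshold changed sign, and the cause was not tested. The WT and KO responses of HLA-B differed by -0.011 on the log2 scale with the clone block, and by -0.023 clone by clone with library totals. Without KO replicates 4 and 5, treated MICB differed by -0.447 between WT and KO clones, and the MICA responses by 0.008 (0.004 clone by clone). Clone by clone, the HLA-B responses differed by -0.087 without KO replicate 3 and by -0.055 without replicates 4 and 5. The untreated CIITA difference of 0.62 (exact permutation p = 0.0476) had p = 0.0952 and 0.107 in these settings. With 1 replicate left out, WT against KO ranged from -0.006 to 0.431 for untreated HLA-B, from -0.054 to 0.222 for treated B2M and from -0.196 to 0.493 for treated MICB. The difference between responses ranged from -0.118 to 0.138 for HLA-B, from -0.19 to 0.01 for HLA-C, from -0.289 to 0.216 for NLRC5 and from -0.172 to 0.078 for MICA. Of the values for single genes, 592 kept direction and side of the threshold, 15 lost the threshold and 21 changed sign. Library totals moved the median of all genes in the WT response from -0.03 to -0.10. The order of levels held for all 9 genes by library totals. Depth limits HLA-G and MICB, with 24 counts or fewer in every library.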

Other observations

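By size of log2 fold change in WT clones, HLA-E ranked 129, NLRC5 134, HLA-F 171, HLA-B 315, B2M 348 and HLA-C 406 from the top of 19522 genes tested. MICA ranked 17769 of the same list. In KO clones HLA-E ranked 97, NLRC5 106, HLA-F 140, B2M 275, HLA-B 303 and HLA-C 372 of 19385 genes.

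Pseudogenes of the heavy chain family differed among themselves. HLA-L gave a log2 fold change of 1.16 in WT clones (adjusted p = 0.0129) and 0.31 in KO clones (adjusted p = 0.667), and HLA-J gave 0.67 and 0.84 (adjusted p = 0.287 and 0.171, edgeR). Neither passed the threshold, and the difference of 0.83 between the HLA-L responses had an adjusted p of 1.0. In treated libraries HLA-L was 1.06 log2 units higher in WT than in KO clones (unadjusted p = 0.00183, adjusted p = 0.827, edgeR). The levels were 2.15 to 3.84 against 1.12 to 1.955 CPM, without overlap. Untreated, the difference was 0.22 (unadjusted p = 0.536, edgeR). Of the 6 tested transcripts of this list, HLA-L alone had an unadjusted p under 0.05 between treated WT and KO clones. HCP5 had 0.212 to 1.02 CPM in untreated and 0.560 to 7.17 CPM in treated WT clones, and 0.141 to 0.552 and 0.256 to 4.67 CPM in the KO clones, with ranges that overlap between conditions in both genotypes.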
